A study of Homo sapiens with 4 samples.

Results

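The genes described are 8 human APOBEC cytidine deaminases: APOBEC1, on chromosome 12, and APOBEC3A, APOBEC3B, APOBEC3C, APOBEC3D, APOBEC3F, APOBEC3G and APOBEC3H, which lie side by side on chromosome 22. They were measured in cells of the human colon adenocarcinoma line SW620, as every probe set whose platform annotation names one of them, also when it names several genes. The table held 54675 probe sets, and 10 of them met this rule. The 10 probe sets named 7 of the 8 genes, 8 of them naming 1 gene each and 2 naming 2 genes. APOBEC3H has no probe set in the annotation used and was not analysed here. The family was selected on the difference between CD133+ and CD133- arrays, in which an APOBEC3G probe set stood out in an earlier look at these data. That contrast is therefore given as a description for every member, and nothing is supported with it. The number of members among the fit's calls is given beside the share over all probe sets, and then for other settings.

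The 2 groups were CD133+ SW620 cells (clone CPC1) and CD133- SW620 cells (clone CNC1), with 2 arrays each. Per the labels, the line was sorted with magnetic beads for CD133, a surface glycoprotein used to mark colon cancer stem cells, single cells were grown into clones, and the expanded cells went through the CD133 kit again before RNA was extracted. Both groups grew in the same medium and had no other treatment. Each group is 1 clone, so the effect of CD133 status and that of the clone cannot be told apart. No label says whether the arrays of one group stand for separate cultures, so the p-values given below rest on a spread that may be purely technical.

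APOBEC enzymes convert cytosine to uracil in single-stranded DNA or RNA. APOBEC1 edits the mRNA of apolipoprotein B in enterocytes of the small intestine, where it works with an RNA-binding partner. The APOBEC3 enzymes limit retroviruses and retrotransposons by deaminating their cDNA, and APOBEC3A and APOBEC3B are also known as sources of C-to-T mutations in tumour genomes. APOBEC3A, APOBEC3C and APOBEC3H have a single deaminase domain, whereas APOBEC3B, APOBEC3D, APOBEC3F and APOBEC3G carry a pair of them, and the genes are so alike in sequence that probes can detect more than one of them. In Affymetrix names the ending _s_at marks a probe set shared by several transcripts and _x_at one with probes that may also bind other sequences.

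As a check of the labels, PROM1, the gene that encodes CD133, had log2 signals of 8.46 and 8.73 on the CD133+ arrays, against 3.31 and 3.35 on the CD133- arrays (difference 5.26, SE 0.200, limma adjusted p = 0.000364). Of the 54613 probe sets other than controls, 99 (0.181%) had a limma adjusted p under 0.05, 27 higher (0.0494%) and 72 lower (0.132%) in CD133+. Of the calls, 27.3% were higher after quantile normalization, 50% of 6 calls without that step and 21.9% of 32 calls after median centring. With so few calls, whether the split depends on the scaling cannot be told. The arrays were not equally alike: at least 2-fold differences between 2 arrays were found in 416 probe sets within the CD133+ clone, in 364 within the CD133- clone and in 431 to 2457 between clones, the most between CD133+ replicate 2 and CD133- replicate 1. Probes at the 3' end of ACTB exceeded those at its 5' end, a measure of RNA integrity, by 1.92 log2 units on CD133+ replicate 2. That gap was 0.69 on CD133+ replicate 1 and 1.17 and 0.91 on the CD133- arrays. For GAPDH the gap did not set that array apart, at 0.088 and 0.064 on the CD133+ arrays, against 0.015 and 0.041 on the CD133- arrays. Markers of colon epithelium had mean log2 signals of 7.58 and 7.64 in CD133+, against 7.59 and 7.69 in CD133-, over 18 probe sets for 11 genes. Their levels were uneven, with group means of 14.05 in CD133+ and 14.14 in CD133- for KRT18, but 4.68 and 4.73 for LGALS4. CEACAM5 had 3.25 in CD133+ and 3.35 in CD133-, and 5.38 and 4.70 in its other probe set. KRT20, a keratin of mature colon epithelium, was dim at 3.23 and 3.44 in CD133+, against 3.78 and 3.25 in CD133-.

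APOBEC3G, which is packaged into retroviral particles and deaminates viral cDNA, was the member with the largest difference between the clones. Its probe set 204205_at, based on a RefSeq mRNA, had log2 signals of 6.78 and 6.32 on the CD133+ arrays, against 8.44 and 8.18 on the CD133- arrays. Both CD133+ arrays lay below both CD133- arrays, and even the closest pair of arrays from different clones was apart by -1.40. The means were 6.55 ± 0.32 in CD133+ and 8.31 ± 0.19 in CD133- cells (SD, n = 2 each), a log2 difference of -1.76 (SE 0.206), so that the signal was 3.39-fold lower in CD133+. The gap between replicates was 0.46 in CD133+ and 0.27 in CD133-, both smaller than the difference between clones. Ordered from the most negative difference, this probe set was number 20 of 54613.

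The probe set 214995_s_at, which the annotation assigns to both APOBEC3F and APOBEC3G, had the same pattern. Its log2 signals were 4.54 and 4.15 on the CD133+ arrays, against 6.11 and 5.66 on the CD133- arrays. The groups again did not overlap, and the difference was -1.54 (SE 0.251), a signal 2.91-fold lower in CD133+, which made it number 49 from the most negative end. APOBEC3F, a relative that also limits retroviruses, has 2 probe sets of its own, and 1 of them, 214994_at, is based on the same sequence record as the shared probe set. That probe set had 5.05 and 5.77 on the CD133+ arrays, against 5.22 and 5.37 on the CD133- arrays, and the groups overlapped.

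The other probe set of APOBEC3G, 215579_at, went the opposite way. It had log2 signals of 6.50 and 6.37 on the CD133+ arrays, against 5.78 and 6.08 on the CD133- arrays. Here both CD133+ arrays lay above both CD133- arrays, with a difference of 0.50 (SE 0.201), a signal 1.42-fold higher in CD133+. It is based on another GenBank record than 204205_at, which is based on the RefSeq mRNA. The probe sequences were not used here, so which transcripts or stretches of the gene each probe set detects was not examined. The 3 probe sets that name APOBEC3G thus gave 2 lower and 1 higher signal in CD133+, and the mean over the 2 that name it alone differed by -0.63 (SE 0.148).

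**Figure D1:**
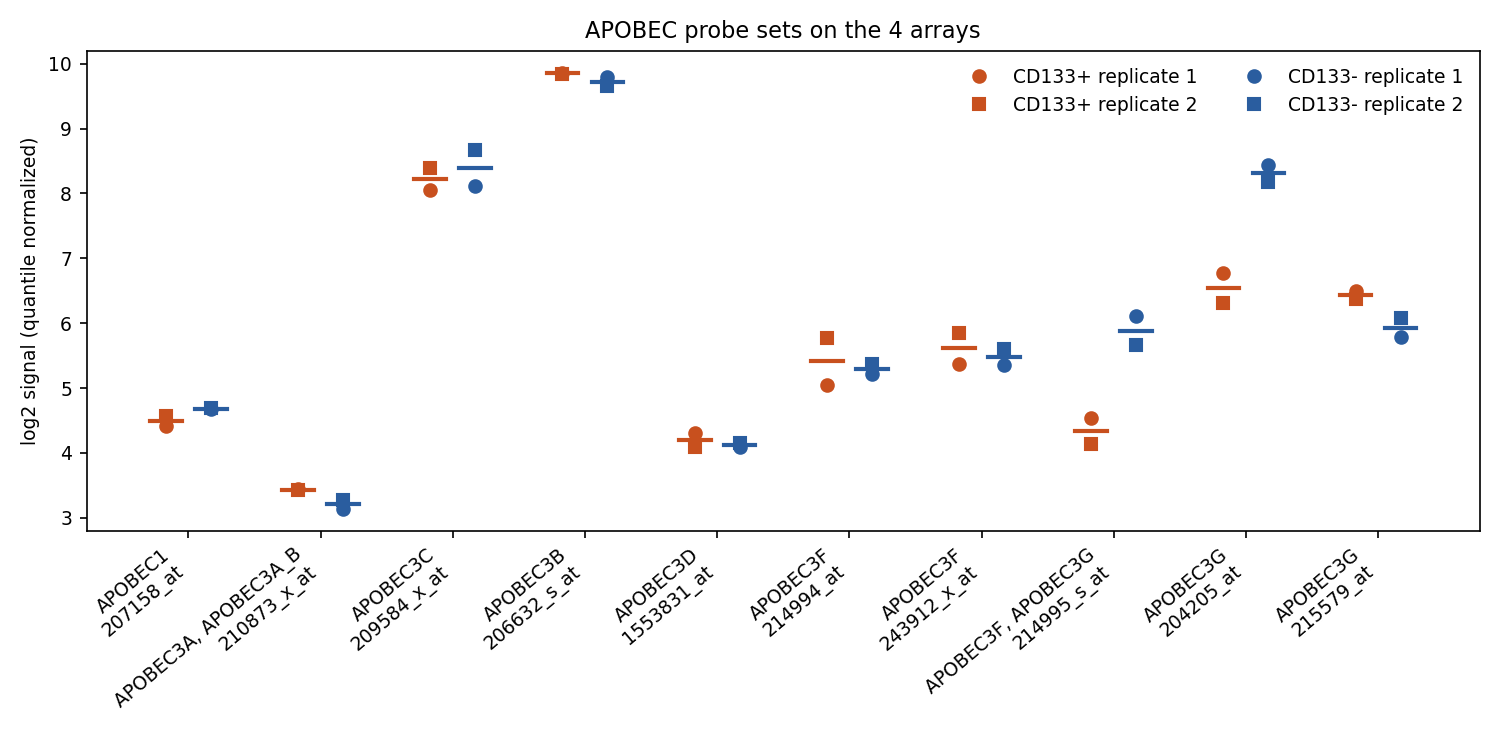
Log2 signal after quantile normalization (vertical axis) of the 10 APOBEC probe sets (horizontal axis) on the 2 CD133+ arrays (orange, left) and the 2 CD133- arrays (blue, right), with circles for replicate 1, squares for replicate 2 and bars for the group means; heights are not comparable between probe sets. The probe sets 204205_at and 214995_s_at lie lower on both CD133+ arrays, 215579_at lies higher, and the other probe sets lie close together or overlap.

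The remaining APOBEC3 members with a pair of deaminase domains had differences of smaller size than those of 204205_at and 214995_s_at. APOBEC3B, a nuclear enzyme expressed in many tumours, had log2 signals of 9.86 and 9.85 on the CD133+ arrays, against 9.79 and 9.66 on the CD133- arrays. The arrays did not overlap, with CD133+ higher, but the closest pair was only 0.060 apart, and the difference of 0.13 (95% interval of the fit -0.12 to 0.39) became -0.0048 when each array was centred on its median. APOBEC3D had 4.31 and 4.09 on the CD133+ arrays, against 4.10 and 4.15 on the CD133- arrays, with overlapping groups and a difference of 0.071 (95% interval -0.36 to 0.50).

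For APOBEC3F the 2 probe sets of its own gave like values. The difference was 0.12 for 214994_at (95% interval -0.51 to 0.75) and 0.13 for 243912_x_at (-0.42 to 0.68). The second had log2 signals of 5.38 and 5.85 on the CD133+ arrays, against 5.36 and 5.61 on the CD133- arrays. Both probe sets were highest on CD133+ replicate 2, which also had the widest 3' to 5' gap of ACTB, but not of GAPDH. The part of RNA quality in this was not tested. The gap between the CD133+ replicates was 0.71 for 214994_at and 0.47 for 243912_x_at, larger than either difference between the clones. Without CD133+ replicate 2 the differences were -0.24 and -0.11. The shared probe set 214995_s_at was not high on that array, where it had its lowest signal, as had 204205_at.

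Among the single-domain members, APOBEC3C, which is broadly expressed, had log2 signals of 8.05 and 8.38 on the CD133+ arrays, against 8.12 and 8.67 on the CD133- arrays. The groups overlapped, and the gap between the CD133- replicates, 0.55, was larger than the difference of -0.18 (95% interval -0.67 to 0.32). That difference was -0.33 in the values as deposited and -0.40 after median centring. With 1 array left out it ran from -0.45 without CD133- replicate 1 to 0.096 without CD133- replicate 2. The probe set 210873_x_at, which names APOBEC3A and APOBEC3A_B, the hybrid gene of a deletion allele, had 3.44 and 3.43 on the CD133+ arrays, against 3.14 and 3.28 on the CD133- arrays. Its difference was 0.23 (95% interval -0.058 to 0.51) with arrays that did not overlap, but its mean level was in the lowest 20% of all probe sets, where signal is hard to tell from background. It was the only member there, and with APOBEC3D it was 1 of 2 members below the median level of all probe sets.

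APOBEC1, the editing enzyme of apolipoprotein B mRNA, had log2 signals of 4.42 and 4.57 on the CD133+ arrays, against 4.67 and 4.70 on the CD133- arrays. The CD133+ arrays were lower without overlap, but the closest pair was apart by only -0.10, and the difference was -0.19 (95% interval -0.65 to 0.27). Its mean level lay close to the median level of all probe sets, 4.53.

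**Figure D2:**
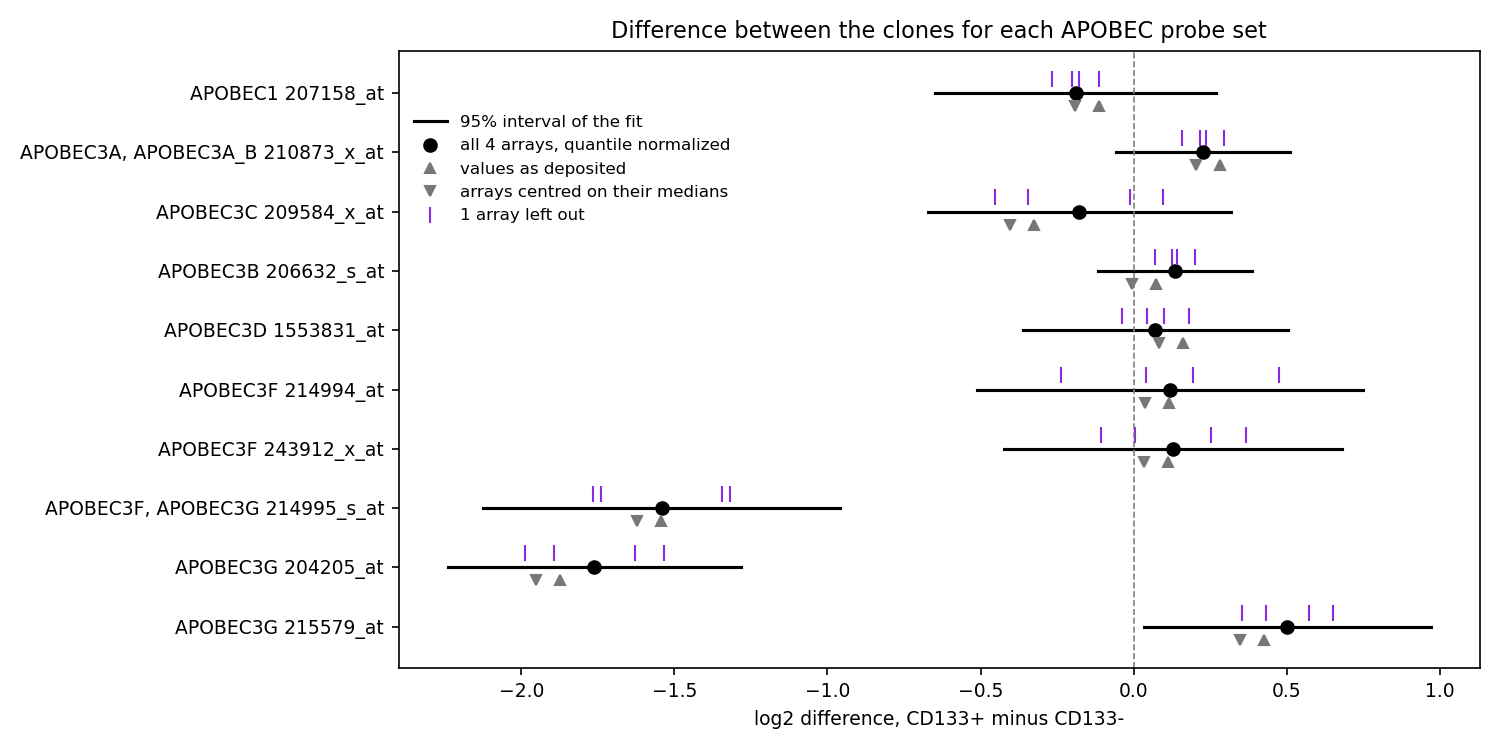
Log2 difference, CD133+ minus CD133- (horizontal axis), for each APOBEC probe set (rows), with the 95% interval of the fit, the differences before quantile normalization and after median centring (upward and downward triangles), and the values with 1 array left out (purple marks). For 204205_at the difference stayed between -1.99 and -1.53 and for 214995_s_at between -1.77 and -1.32, while APOBEC3B, APOBEC3C, APOBEC3D and both APOBEC3F probe sets reached both sides of 0.

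Across the family, 4 of 10 probe sets had a negative and 6 a positive difference, with a median of 0.094, against 0.015 over all probe sets. In 6 of the 10 the arrays of the clones did not overlap, 3 with CD133+ higher and 3 with CD133+ lower, against 43.9% of all probe sets (23.5% higher and 20.4% lower). At least 2-fold differences were found in 2 of 10, both naming APOBEC3G, against 0.857% of all probe sets. With limma over all probe sets, 1 of 10 had an adjusted p under 0.05, the APOBEC3G probe set 204205_at, against the 0.181% given above. Because this contrast chose the family, nothing is read from these counts. That count was 0 without CD133- replicate 1, where 9 probe sets were called over the whole table, and 0 without CD133- replicate 2, where 53 were called. It was also 0 without quantile normalization and 0 after median centring, and it was 2 without CD133+ replicate 1, where 520 were called.

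**Figure D3:**
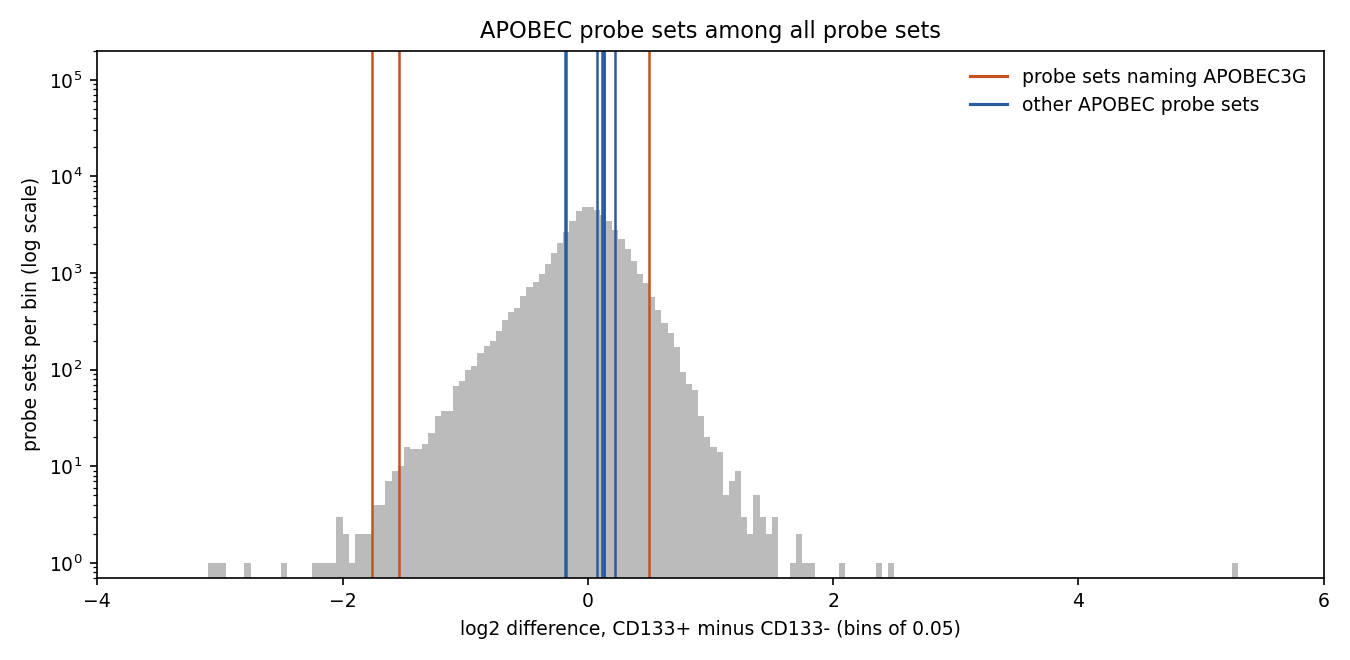
Number of probe sets per bin of 0.05 (vertical axis, log scale) against the log2 difference, CD133+ minus CD133- (horizontal axis), for all 54613 probe sets (grey), with lines at the 3 probe sets naming APOBEC3G (orange) and the 7 other APOBEC probe sets (blue). The lines at -1.76 and -1.54 lie in the sparse negative tail, the line at 0.50 in the upper flank and the 7 others between -0.19 and 0.23.

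The probe set whose 4 array values, each centred on its own mean, lay closest to those of 204205_at was one of RUNX2, a transcription factor of bone formation, at a root mean square distance of 0.053 log2 units over the 4 arrays. It had 4.35 and 3.87 on the CD133+ arrays, against 6.12 and 5.73 on the CD133- arrays. The next were probe sets of LRRC34 at 0.082, LAMB1, a laminin chain, at 0.084, CD24, a surface glycoprotein, at 0.12 and FHOD3, a formin, at 0.13, with differences between -1.93 and -1.53. The shared probe set 214995_s_at had a distance of 0.13, and 6 probe sets of the whole table lay closer. The other members lay between 0.82 for APOBEC1 and 1.15 for 215579_at, against a median of 0.92 over all probe sets. With 4 arrays, such a distance mostly restates the difference between the clones.

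The neighbours of the APOBEC3 genes on chromosome 22 differed less between the clones than 204205_at did. Because the family was selected on this contrast, in which an APOBEC3G probe set stood out, nothing is read from that. The 5 measured genes on each side were taken by the brightest probe set of each. The limma threshold over all probe sets was passed by 0 of these 10, against 0.181% of all probe sets. An unadjusted p under 0.05 was found in 2 of them, against 12.7% of all probe sets. The differences of these 10 genes ran from -0.27 for PDGFB, a growth factor chain, to 0.63 for SUN2, a nuclear envelope protein. Of them, 5 were positive and 5 negative. Over all probe sets of these genes, not only the brightest, differences ran from -0.28 for PDGFB to 0.85 for GTPBP1 (SE 0.244). SUN2 had log2 signals of 7.61 and 7.73 on the CD133+ arrays, against 6.93 and 7.14 on the CD133- arrays (adjusted p = 0.199). CBX6 and CBX7, Polycomb proteins whose genes flank the APOBEC3 run, were at -0.062 (SE 0.182) and -0.074 (SE 0.295). The other probe set of CBX6 was at 0.11 (SE 0.164). Around APOBEC1 on chromosome 12, 0 of 10 genes passed and 1 had an unadjusted p under 0.05, CD163L1, a scavenger receptor family member, at 0.93 (SE 0.126, limma adjusted p = 0.0522). It was named after its value was seen.

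**Figure D4:**
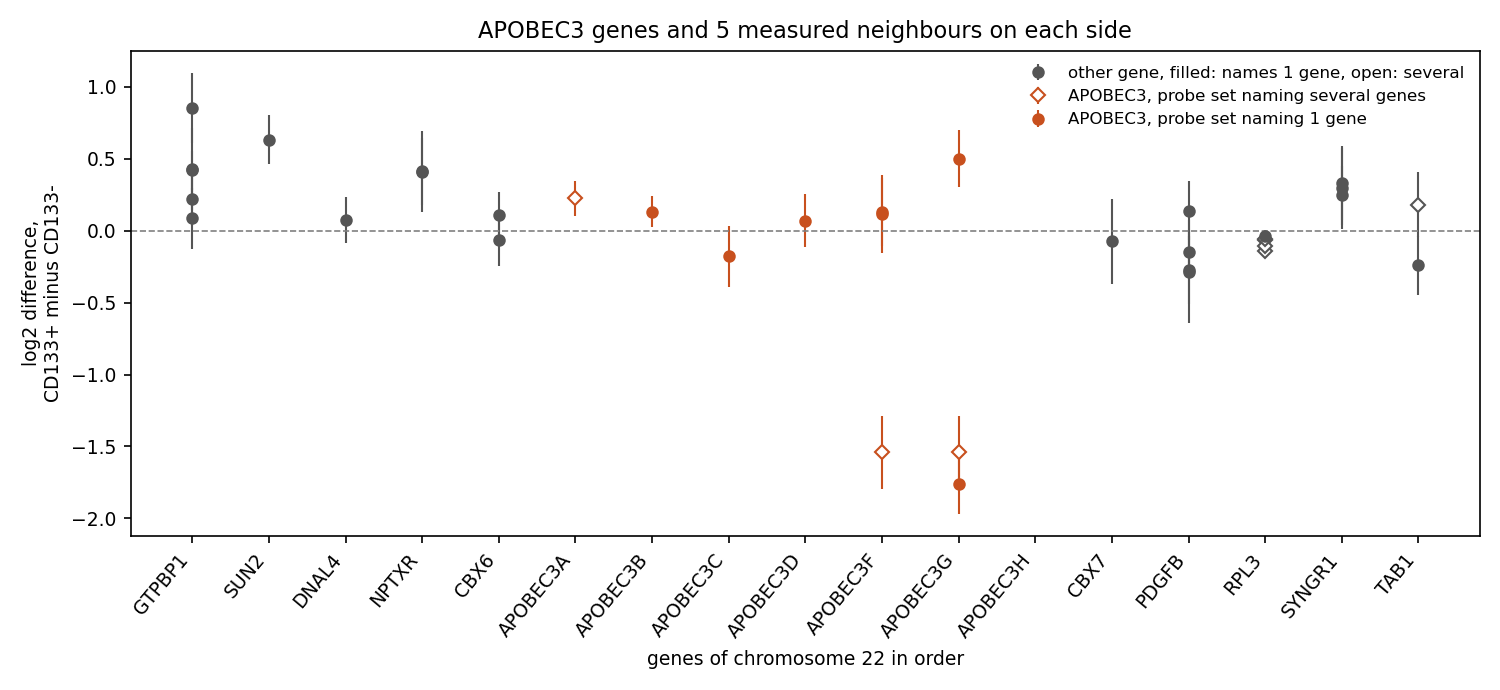
Log2 difference, CD133+ minus CD133-, with its standard error (vertical axis) for each probe set of the APOBEC3 genes (orange) and of 5 measured genes on each side (grey), in gene order along chromosome 22 (horizontal axis, not to scale). Open diamonds are probe sets that name several genes, so that 214995_s_at is drawn at both APOBEC3F and APOBEC3G. Only 204205_at and 214995_s_at lie below -1, and APOBEC3H has no point.

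Genes around the APOBEC enzymes (editing partners, DNA repair, other deaminases, restriction factors, signalling and cell cycle genes) and markers of colon, lymphoid and myeloid cells were compared in 12 lists of 147 genes, of which 133 had 288 probe sets naming 1 gene. None of the 288 passed with limma over all probe sets, against 0.181% of all probe sets, and the smallest adjusted p was 0.0558. Of the 288, 50 (17.4%) had an unadjusted p under 0.05, against 12.7% of all probe sets. When probe sets below the median level were left out, 5 of these genes had a probe set with an adjusted p under 0.05, with A1CF, IFITM2 and IFITM3 higher and CCNB1 and VIL1 lower in CD133+, out of 336 called probe sets. IFITM2, IFITM3, CCNB1 and VIL1 were named after their values were seen.

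The editing partners of APOBEC1 and its target APOB were all measured, in 24 probe sets for 6 genes, with 0 past the threshold over all probe sets and a median difference of 0.056 (0.00090 after median centring). A1CF, the RNA-binding cofactor of APOBEC1, had log2 signals of 8.99 and 8.88 on the CD133+ arrays, against 8.04 and 8.11 on the CD133- arrays, differing by 0.87 (SE 0.135, limma adjusted p = 0.0671). The groups did not overlap for this probe set, while the other probe set of A1CF had overlapping arrays and a difference of 0.24 (SE 0.248). RBM47, another RNA-binding partner, had 5 probe sets with differences from 0.068 to 0.53. APOB, whose mRNA APOBEC1 edits, was dim in both clones, at 3.45 and 3.57 on the CD133+ arrays against 3.28 and 3.69 on the CD133- arrays in 1 of its 2 probe sets.

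Genes of uracil base excision repair, the pathway that removes uracil left by deaminases in DNA, had 33 probe sets for 16 of 17 genes. None passed the threshold, 5 had an unadjusted p under 0.05 with CD133+ lower and 1 with CD133+ higher, and the median difference was -0.17, against 0.015 over all probe sets (-0.26 as deposited and -0.34 after median centring). The arrays did not overlap in 15 of the 33 that were lower and 3 that were higher in CD133+, against 20.4% and 23.5% of all probe sets. UNG, the main uracil DNA glycosylase, had log2 signals of 7.37 and 7.19 on the CD133+ arrays, against 8.05 and 8.11 on the CD133- arrays, differing by -0.80 (SE 0.158, limma adjusted p = 0.102). Both CD133+ arrays were thus lower, without passing the threshold.

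The pathways that raise APOBEC3 genes in other settings held no probe set past the threshold, which 0.181% of all probe sets passed. With so low a share, the lack of calls says little about these lists. Their part in the APOBEC differences was not tested. Interferon signalling and target genes had 43 probe sets for 21 of 23 genes, a median difference of -0.044 (-0.0225 as deposited and -0.10 after median centring), and 3 higher and 3 lower at an unadjusted p under 0.05. Genes of the NF-kappaB pathway had 26 probe sets for 13 of 14 genes, a median of -0.041 (-0.10 as deposited and -0.18 after median centring), and 1 higher and 2 lower at that level. Other retroviral restriction factors had 26 probe sets for 14 of 15 genes, a median of 0.076 (0.0165 as deposited) that turned to -0.062 after median centring, and 3 higher and 3 lower. IFITM2 and IFITM3, which hinder virus entry, differed by 0.94 (SE 0.139, limma adjusted p = 0.0584) and 0.79 (SE 0.128, limma adjusted p = 0.0693), and probes may detect both genes.

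Lymphocytes hold much APOBEC3G and myeloid cells much APOBEC3A, so markers of both were examined beside these genes. The 25 probe sets for 12 of 13 lymphocyte markers had a summed linear signal of 436 and 459 on the CD133+ arrays, against 403 and 434 on the CD133- arrays, and 20 of the 25 lay below the median level of all probe sets. The 13 probe sets for 7 of 10 myeloid markers summed to 277 and 266 on the CD133+ arrays, against 287 and 279 on the CD133- arrays, and 11 of the 13 lay below the median level. No array signal is at 0, and no marker of either list passed the threshold or had an unadjusted p under 0.05. Their part in the APOBEC differences was not tested.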

How the data were processed

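RNA of 4 samples was hybridised to 1-colour Affymetrix arrays. The authors deposited log2 probe-set signals, as their range from 2.52 to 14.57 shows. They used Affymetrix Expression Console, per the submitters' processing notes, and how it corrected background, normalized and summarised is not given in the sources used here. Medians of the deposited arrays spread by 0.144, above the limit of 0.1, so all arrays were quantile normalized, which removes any overall difference in distribution. The number of arrays limits the precision (median SE 0.177).

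Probe sets were named by the platform annotation (41091 named 1 gene, 1801 several, and 11721 other than the 62 controls none), and chromosomes and gene order came from RefSeq (GRCh38.p14). The 54613 probe sets were fitted in R 4.3.3 with limma 3.58.1 (lmFit, eBayes with trend), without a filter on level, with Benjamini-Hochberg adjustment over all of them. Intervals are limma's 95% intervals. The fit was tested on simulated data. Differences are CD133+ minus CD133-, and errors after ± are SDs over 2 arrays. Distances and fold values were computed on quantile-normalized values.

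The members, lists and rules were chosen with earlier results of these data known. The genes named are all members, PROM1, up to 4 passing genes per list, APOBEC2, APOBEC4, A1CF, RBM47, APOB, UNG, ADAR and CDA, passing neighbours, and the 5 closest profiles. APOBEC2 has no probe set of its own in the annotation used, and another gene of this rule is not reported here. The other genes named were chosen after their values were seen. Alternatives were 2 other scalings, 2 filters on level, 2 variance models, the replicate block, 2 thresholds, 2 ways to form gene values and each array left out. Figures were drawn with matplotlib 3.10.9.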

Additional observations from a re-analysis of the deposited data

How the results depend on the processing

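The sign of the difference held under each of 11 alternatives for the APOBEC3G probe sets 204205_at and 215579_at, for 214995_s_at and for APOBEC1, and under each of 9 for APOBEC3A. 1 alternative turned it for APOBEC3B, APOBEC3C, APOBEC3D and each APOBEC3F probe set. The filters on level, the variance models and the replicate block leave the difference itself as it is. For the probe sets that kept their sign, the arrays of the clones did not overlap, so leaving out 1 array could not turn it. Only the 2 other scalings could have turned their sign. Counts of calls moved far more. Over the whole table, with 99 calls, there were 6 in the values as deposited, 32 with centred arrays, 336 above the median level, 2 without the variance trend, 6 at an adjusted p under 0.01, 7 against a 1.5-fold change, and 9 to 520 with 1 array left out (9 without CD133- replicate 1, 53 without CD133- replicate 2, 314 without CD133+ replicate 2 and 520 without CD133+ replicate 1). The member count, 1, was 0 as deposited, with centred arrays, without the variance trend, at 0.01, against a 1.5-fold change and with probe sets of a gene averaged, 2 above the median level, and 0 to 2 with 1 array left out. The lists, with 0 calls, had 1 without the lowest 20% of levels, 1 with robust settings, 5 above the median level and 0 to 9 with 1 array left out. Filters on level change both the number of tests adjusted for and the variance fit, and the cause of any move was not tested. Leaving out an array leaves its clone with 1 array, assumed to vary like the other clone.

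With the replicate number as a block, 2409 probe sets, 2 members and 20 list probe sets were called, on 1 residual degree of freedom. The deviations of the replicate 1 arrays from their group means correlated with r = 0.399 across probe sets, but no label says that the numbers pair the arrays.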

Other observations

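Deaminases of other substrates and further genes around DNA deamination were also compared. ADAR, which edits adenosine in RNA, was at 0.056 (SE 0.0996) and CDA, which deaminates free cytidine, at 0.15 (SE 0.181), with overlapping arrays for both. The list of adenosine and free cytidine deaminases had 0 of 23 probe sets past the limma threshold, and 1 higher and 7 lower in CD133+ at an unadjusted p under 0.05, with a median difference of -0.041 (-0.0995 as deposited and -0.18 after median centring). APOBEC4, a less studied relative, had log2 signals of 3.49 and 3.29 in CD133+, against 3.43 and 3.36 in CD133-, in the lowest 20% of levels. Mismatch repair and abasic site genes had 0 of 25 probe sets past the threshold, 1 higher and 5 lower at that unadjusted level, and a median of -0.11 (-0.19 as deposited and -0.27 after median centring).

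Cell cycle and p53 target genes had 0 of 31 probe sets past the threshold, 1 higher and 4 lower at an unadjusted p under 0.05, and a median of 0.025, which was -0.012 in the values as deposited and -0.091 after median centring. CCNB1, cyclin B, had 7.57 and 8.02 in CD133+, against 9.18 and 8.96 in CD133- in the probe set with the smallest p of all lists (difference -1.28, SE 0.184, limma adjusted p = 0.0558). Its other, brighter probe set differed by -0.52 (SE 0.095, limma adjusted p = 0.0884). Among colon epithelial markers 0 of 18 probe sets passed, and 1 was higher and 4 were lower at an unadjusted p under 0.05. Their median was -0.078 (-0.019 as deposited and -0.097 after median centring). The higher one was a probe set of CDH1, at 0.26 (SE 0.088), and the lower ones were of VIL1, EPCAM and KRT8. CDX1, at 0.39 (SE 0.305), and the brighter probe set of CDX2, at 0.16 (SE 0.186), were also on the higher side. VIL1, the brush border protein villin, was at -0.75 (SE 0.129, limma adjusted p = 0.0779) in 1 probe set. Its other probe sets were between -0.49 and -0.34.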
